A study of Mus musculus with 9 samples.

Results

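Oncostatin M, leukaemia inhibitory factor and interleukin-6 signal through the shared receptor subunit gp130, and 9 genes of this pathway were followed here in sorted mouse monocytes. They were taken by gene symbol as the ligand genes Osm, Lif and Il6, the receptor genes Il6st (gp130) and Il6ra, the kinase genes Jak1 and Jak2, the transcription factor gene Stat3 and the inhibitor gene Socs3. These are 9 of the 23238 symbols in the count files, and all 9 carried counts and were among the 10107 genes that passed the filter on low counts. Wild-type mice were given NMO-IgG, the patient antibody of neuromyelitis optica (NMO), with human complement by injection into the striatum on a single side, and cells were collected at day 1. Monocytes, gated as CD45+CD11b+P2ry12-Ly6C+Ly6G- cells, came from the blood of untreated normal mice (Nor_Bl_mono), from the blood of the injected mice (NMO_Bl_mono) and from the brains of the injected mice (NMO_Br_mono). Each group held 3 libraries of 5 pooled mice each, so the errors and p-values below measure the spread between pools. The 3′ ends of polyadenylated transcripts were sequenced (QuantSeq), with 7584649 to 10419647 counts per library, and levels are given as counts per 1000000 (CPM) of a library total scaled by the trimmed mean of M values. No brain monocytes without NMO-IgG are compared here, and blood cells were isolated on a density gradient while brain cells were released with enzymes, so tissue, lesion and preparation cannot be told apart.

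gp130 cytokines bind gp130 together with a further receptor chain, and the receptor complex activates Janus kinases that phosphorylate STAT3. STAT3 enters the nucleus and switches on target genes, among them Socs3, whose product binds gp130 and dampens the signal. Oncostatin M is known as a product of activated monocytes, macrophages and neutrophils, and its receptor is found mainly on stromal, endothelial and glial cells.

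Among the 9 libraries, NMO_Bl_mono replicate 3 stood apart. Of the genes at 50 CPM or more in both other libraries of its group, 22.3% were at or under 3 counts in it, against 8.26% for NMO_Br_mono replicate 2 and at most 1.94% for the other 7 libraries. NMO_Bl_mono replicate 3 detected 4567 genes and had no count for 5 of the 9 pathway genes (Osm, Lif, Il6, Il6st and Il6ra), while the other libraries detected 6473 to 11556 genes. The members' calls and the fold changes that rest most on these libraries are given with and without them. Library totals and counts of 0 limit counting error only. In bulk RNA, fewer cells that make a transcript and less of it per cell cannot be told apart.

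Osm and Lif are neighbours on mouse chromosome 11 (GRCm38.p6), Osm at chr11:4236785-4241026 and Lif at chr11:4257568-4272514, both on the plus strand with 16541 bases between them, and Stat3 and Socs3 lie on the same chromosome. The 250 bases before the transcript start were taken from RefSeq promoters (GRCm38.p6), which held 8 of the 9 genes. Osm was not matched. They were searched on both strands for a STAT motif (TTCNNNGAA, found in 7.02% of 32841 promoter stretches of this length), an AP-1 motif (TGANTCA, 6.75%), an NF-kB motif (GGGA and TTTCC with any base between them, 0.356%) and a C/EBP motif (TTGCNNAA, 9.57%). Il6 held 3 matches that did not overlap each other, Lif held 1 AP-1 match, Socs3 held 1 STAT match, and Il6st, Il6ra, Jak1, Jak2 and Stat3 held none. The stretches of Il6, which had no count in brain monocytes, and of Il6st, which was higher there, are shown whole, and 25 bases either side of the match are shown for Socs3, the feedback inhibitor, and as far as the stretch allows for Lif. Capitals mark the matches, which are a description of the letters and not of binding. The stretches lie at chr5:30012864-30013113 (plus strand, Il6), chr13:112463820-112464069 (plus, Il6st), chr11:117969487-117969545 (minus, Socs3, inside an intron of a longer annotated Socs3 transcript) and chr11:4257318-4257371 (plus, Lif).
Il6: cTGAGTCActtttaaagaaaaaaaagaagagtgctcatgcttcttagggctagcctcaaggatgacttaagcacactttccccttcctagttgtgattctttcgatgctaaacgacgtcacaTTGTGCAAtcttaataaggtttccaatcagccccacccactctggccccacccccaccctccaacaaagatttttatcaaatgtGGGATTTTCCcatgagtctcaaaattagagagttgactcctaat
Il6st: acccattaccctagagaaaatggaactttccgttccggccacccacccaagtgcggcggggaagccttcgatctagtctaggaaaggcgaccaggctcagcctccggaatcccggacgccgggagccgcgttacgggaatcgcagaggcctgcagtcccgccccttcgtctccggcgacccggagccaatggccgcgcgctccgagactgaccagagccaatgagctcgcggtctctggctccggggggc
Socs3: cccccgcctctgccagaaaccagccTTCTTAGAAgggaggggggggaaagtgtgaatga
Lif: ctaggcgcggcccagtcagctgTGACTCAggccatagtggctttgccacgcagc

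Of the ligands, Osm was higher in brain monocytes than in either blood group. Osm encodes oncostatin M and had 1966, 1515 and 2261 counts in NMO_Br_mono replicates 1 to 3, or 222, 144 and 225 CPM. In NMO_Bl_mono it had 28.2, 27.8 and 0 CPM, and in Nor_Bl_mono 34.5, 46.0 and 24.9 CPM. Every brain library lay above every blood library, and the 2 blood groups overlapped only because normal replicate 3 lay below NMO_Bl_mono replicates 1 and 2. The mean was 197 ± 45.9 CPM in NMO_Br_mono, against 18.6 ± 16.1 in NMO_Bl_mono and 35.1 ± 10.5 in Nor_Bl_mono (SD, n = 3 libraries each). The fitted log2 fold change of Osm between NMO_Br_mono and NMO_Bl_mono was 3.40 ± 1.43 (SE), with a 95% interval of 0.34 to 6.47, an unadjusted p of 0.0319 and an adjusted p of 0.802 (edgeR quasi-likelihood test with Benjamini-Hochberg adjustment over all genes). It therefore passed the threshold the study used, an unadjusted p under 0.05 with a fold of 1.2, and not the adjusted threshold. Without NMO_Bl_mono replicate 3, the library with no Osm count, the log2 fold change was 2.83 ± 0.68 (SE) with an adjusted p of 0.176 by the same test. Against Nor_Bl_mono it was 2.49 ± 1.37 (SE, adjusted p = 0.762, unadjusted p = 0.0916). Between the blood groups the Osm difference was -0.92 on the log2 scale, with an interval of -3.73 to 1.90 (adjusted p = 1).

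Lif and Il6 were low or missing in most libraries. Lif, which encodes leukaemia inhibitory factor, had 45, 146 and 0 counts in NMO_Bl_mono, 68, 0 and 0 counts in NMO_Br_mono and 1, 0 and 0 counts in Nor_Bl_mono. Only 3 libraries, all from injected mice, were above 3 counts. Taking 3 counts per library as the floor for the normal group, the mean of NMO_Bl_mono (7.40 CPM) was at least 21.0-fold higher. The fitted log2 fold change had an interval of -2.18 to 16.1, with an adjusted p of 1 and an unadjusted p of 0.124 (edgeR). The bound covers counting error only and not the spread between pools. That bound was 31.5-fold without NMO_Bl_mono replicate 3 (adjusted p = 1, unadjusted p = 0.109). Il6, which encodes interleukin-6, had 0 counts in all 3 brain libraries, which by counting error alone allows up to 0.285 to 0.339 CPM in them. More could be missed, since NMO_Br_mono replicate 2 lacked 8.26% of the genes at 50 CPM or more in both other brain libraries. In blood it had 73, 160 and 0 counts in NMO_Bl_mono and 30, 323 and 0 counts in Nor_Bl_mono, so that 4 of 6 blood libraries held Il6 transcripts and 2 did not. Against NMO_Bl_mono the fitted log2 interval of Il6 in brain monocytes, -18.98 to 0.16, included 0 (unadjusted p = 0.0533, adjusted p = 0.802, edgeR). Against Nor_Bl_mono the interval was -19.67 to -0.10 (unadjusted p = 0.0480, adjusted p = 0.708, edgeR), and in both comparisons the groups overlapped at 0. With 3 counts as the floor, brain Il6 was at least 29.9-fold below the mean of NMO_Bl_mono and at least 41.7-fold below that of Nor_Bl_mono. These bounds also cover counting error only. The first of these bounds was 44.9-fold without NMO_Bl_mono replicate 3 (unadjusted p = 0.0343, adjusted p = 0.677, edgeR).

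**Figure D1:**
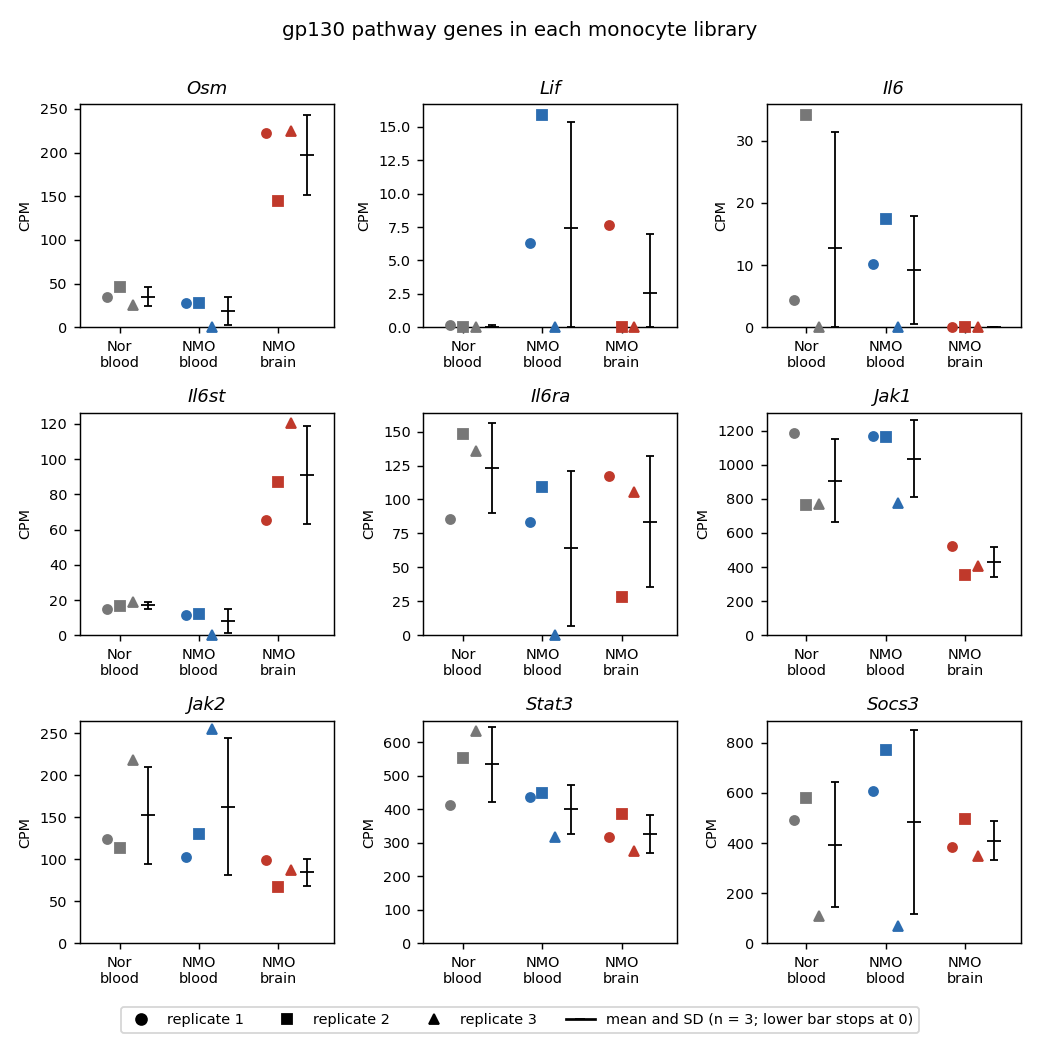
Level of each gene in CPM (vertical axis, starting at 0, own scale per gene) in the 3 libraries of Nor_Bl_mono, NMO_Bl_mono and NMO_Br_mono, with the marker shape giving the replicate number and black bars the mean and SD over 3 libraries. Osm and Il6st lie higher and Jak1 and Jak2 lower in all 3 brain libraries than in any blood library, and NMO_Bl_mono replicate 3 lies at 0 for Osm, Lif, Il6, Il6st and Il6ra.

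The shared receptor gene Il6st had the same order of groups as Osm. It had 577, 915 and 1211 counts in NMO_Br_mono, or 65.3, 87.0 and 120 CPM, against 11.8, 12.3 and 0 CPM in NMO_Bl_mono and 15.1, 16.9 and 19.0 CPM in Nor_Bl_mono. The brain libraries lay above all 6 blood libraries, and the NMO_Bl_mono libraries lay below the normal ones. Il6st differed from NMO_Bl_mono by 3.50 ± 1.76 (SE) on the log2 scale, with an interval of -0.28 to 7.29, an unadjusted p of 0.0672 and an adjusted p of 0.802 (edgeR). Without NMO_Bl_mono replicate 3 the log2 fold change was 2.93 with an unadjusted p of 0.0208 and an adjusted p of 0.677. Against Nor_Bl_mono it was 2.42 ± 1.68 (SE), which passed neither threshold (unadjusted p = 0.173, adjusted p = 1). The drop from Nor_Bl_mono to NMO_Bl_mono, 17.0 to 8.02 CPM on average, was within error at a log2 difference of -1.08 with an interval of -4.56 to 2.39, and it was -0.50 without NMO_Bl_mono replicate 3.

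The interleukin-6 receptor gene Il6ra did not separate the groups. Its levels in CPM were 118, 28.4 and 105 for NMO_Br_mono, 83.1, 109 and 0 for NMO_Bl_mono and 85.7, 148 and 135 for Nor_Bl_mono. The lowest values belonged to the 2 libraries with the most missing genes. The log2 difference between NMO_Br_mono and NMO_Bl_mono was 0.39 with an interval of -2.63 to 3.40, and it turned to -0.19 without NMO_Bl_mono replicate 3. Between NMO_Br_mono and Nor_Bl_mono it was -0.56 with an interval of -3.58 to 2.46.

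Jak1, a kinase bound to gp130, was lower in brain monocytes and had the smallest p of the 9 genes. Its levels in CPM were 523, 352 and 406 for NMO_Br_mono, 1170, 1159 and 776 for NMO_Bl_mono and 1185, 761 and 768 for Nor_Bl_mono. All 3 brain libraries lay below all 6 blood libraries. The means were 427 ± 87.6, 1035 ± 224 and 905 ± 243 CPM (SD, n = 3 each), and NMO_Bl_mono was 2.42 times as high as NMO_Br_mono. The log2 fold change was -1.28 ± 0.34 (SE) against NMO_Bl_mono (unadjusted p = 0.0022, adjusted p = 0.316) and -1.08 ± 0.34 (SE) against Nor_Bl_mono (unadjusted p = 0.0067, adjusted p = 0.514, edgeR). Between the blood groups Jak1 differed by 0.19, with an interval of -0.53 to 0.92. Over 20 alternative settings, each library left out in turn among them, the first of these changes stayed within -1.45 to -1.14. Jak2, the other kinase of the set, was also lower in each brain library (99.0, 67.4 and 87.7 CPM) than in any library of NMO_Bl_mono (103, 130 and 256 CPM) or Nor_Bl_mono (125, 114 and 219 CPM). The margin was narrow, since the highest brain value and the lowest blood value were 99.0 and 103 CPM. Its log2 fold change of -0.94 ± 0.64 (SE, interval -2.32 to 0.43) against NMO_Bl_mono did not pass (unadjusted p = 0.162, adjusted p = 1, edgeR) and was -0.45 without NMO_Bl_mono replicate 3, which held its highest level.

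Stat3, the main transcription factor of the pathway, had its highest mean in normal blood and its lowest in the brain. It had 413, 553 and 635 CPM in Nor_Bl_mono, 436, 449 and 316 CPM in NMO_Bl_mono and 317, 387 and 276 CPM in NMO_Br_mono. The brain libraries lay below the normal blood libraries and overlapped with those of NMO_Bl_mono. The log2 fold change was -0.71 ± 0.38 (SE, interval -1.53 to 0.12) between NMO_Br_mono and Nor_Bl_mono (unadjusted p = 0.0868, adjusted p = 0.746) and -0.29 ± 0.38 (SE, interval -1.12 to 0.53) between NMO_Br_mono and NMO_Bl_mono. Without NMO_Bl_mono replicate 3 in the joint fit, Stat3 passed the unadjusted threshold against Nor_Bl_mono (log2 fold change -0.69, unadjusted p = 0.0402, adjusted p = 0.494, edgeR).

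Socs3, the feedback inhibitor, varied more within the blood groups than between groups. Its levels were 493, 579 and 110 CPM in Nor_Bl_mono and 609, 770 and 68.8 CPM in NMO_Bl_mono, a range of 5.25 and 11.2 times. In NMO_Br_mono it had 385, 496 and 349 CPM, a range of 1.42 times. In each of the 3 groups the library numbered 3 was the lowest and that numbered 2 the highest. None of the comparisons passed, with log2 differences of -0.23 (interval -1.77 to 1.30) between NMO_Br_mono and NMO_Bl_mono, 0.06 (interval -1.47 to 1.59) between NMO_Br_mono and Nor_Bl_mono and 0.29 (interval -1.24 to 1.83) between the blood groups.

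**Figure D2:**
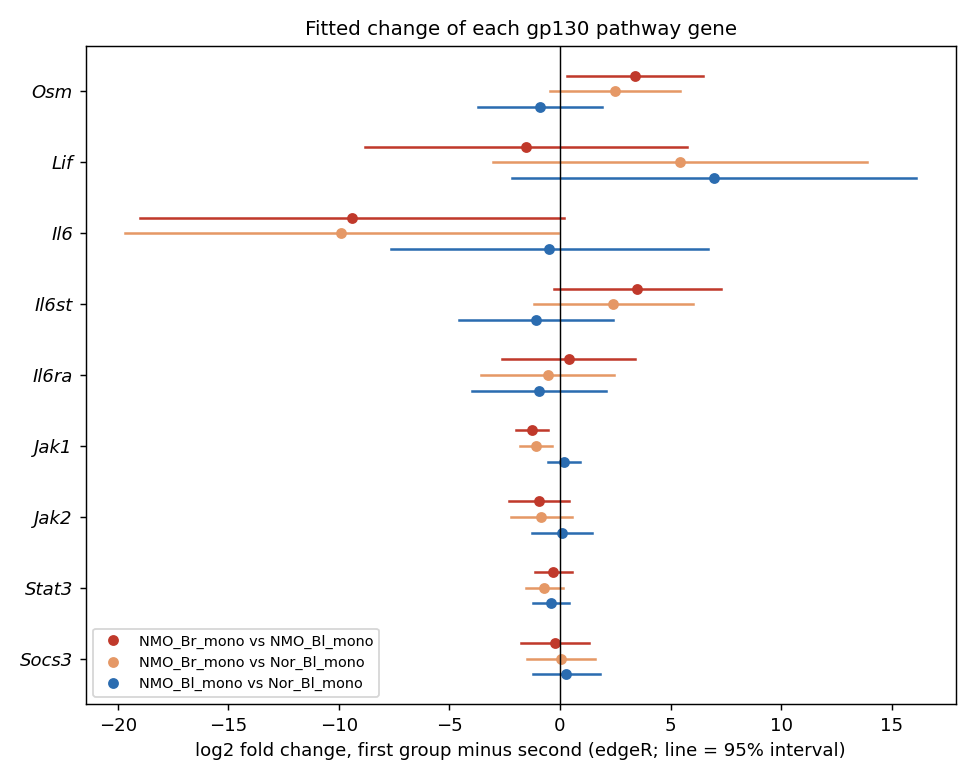
Fitted log2 fold change (horizontal axis, first group minus second) of the 9 genes in 3 comparisons, with lines for the 95% interval from the edgeR fit. The intervals of Jak1 are narrow and lie below 0 in both brain comparisons, that of Osm lies above 0 against NMO_Bl_mono only, and those of Lif and Il6, which rest on few or no counts, span many units.

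Counted together for NMO_Br_mono against NMO_Bl_mono, 0 of the 9 genes passed an adjusted p under 0.05 in the edgeR test, where 0.247% of all genes tested did. At the unadjusted threshold 2 passed, against 5.32% of all genes, namely Osm among the higher genes (1.48% of all) and Jak1 among the lower ones (3.84% of all). DESeq2 called 0 at its adjusted p, where it called 3.32% of all genes. limma-voom with library quality weights, which changes both the model and the weight of each library, called 1, Jak1 (adjusted p = 0.0390, 0.505% of all genes). Under these weights the log2 fold change of Jak1 was -1.38, and the median over all genes was -0.65. At an unadjusted p both tools called Osm, Il6st, Il6 and Jak1, against 9.44% of all genes in DESeq2 and 12.6% in limma-voom. The libraries of the 2 groups did not overlap for 4 of the 9 genes, against 12.3% of all genes, with Osm and Il6st higher (6.30% of all) and Jak1 and Jak2 lower (6.05% of all). The median log2 fold change of the 9 genes was -0.29, against 0.05 over all genes tested, and Il6 at its bound in place of its fitted value leaves that median as it is. Without NMO_Bl_mono replicate 3, 4 genes passed at an unadjusted p (Osm, Il6st, Il6 and Jak1, with 6.25% of all genes) and 0 at an adjusted p (0.320% of all). Without that library and NMO_Br_mono replicate 2, the same 4 genes passed at an unadjusted p (6.75% of all) and 0 at an adjusted p (0.546% of all), the lowest being 0.0557 for Osm. Without NMO_Br_mono replicate 1 or replicate 3, the libraries with the highest Osm levels, only Jak1 was called at an unadjusted p (5.50% and 3.76% of all genes).

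For NMO_Br_mono against Nor_Bl_mono, which shares the brain libraries with the comparison before it, 0 of 9 genes passed the adjusted threshold in edgeR (0.247% of all genes), DESeq2 (3.62%) or limma-voom with quality weights (0.327%). At the unadjusted threshold edgeR called 2 lower, Il6 and Jak1 (4.07% of all genes were called lower), and none higher (1.75%), with 5.82% of all genes in either direction. The Il6 call was lost, leaving Jak1 alone, without any of the 3 brain libraries, without Nor_Bl_mono replicate 1 or 2 and without NMO_Bl_mono replicate 1 or 2, settings in which 3.36% to 5.95% of all genes were called. DESeq2 called 3 (Il6, Jak1 and Osm, with 10.1% of all genes) and limma-voom with quality weights 5 (Il6, Il6st, Jak1, Osm and Stat3, with 11.2%). The libraries did not overlap for 5 genes, against 15.4% of all, with Osm and Il6st higher (6.07% of all) and Jak1, Jak2 and Stat3 lower (9.37% of all). Leaving out NMO_Bl_mono replicate 3 changes both the shared estimate of spread and the genes that pass the filter, 11240 in place of 10107. Without it 5 genes passed at an unadjusted p (8.18% of all) and 0 at an adjusted p (0.552%). Without both libraries that lack many genes, 5 passed at an unadjusted p (9.61%) and Osm passed at an adjusted p of 0.0354 (0.958% of all genes passed), with a log2 fold change of 2.69 ± 0.48 (SE).

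Against the mean of both blood groups, 0 of 9 genes passed the adjusted threshold in edgeR (0.435% of all genes) and in DESeq2 (4.90%), and limma-voom with quality weights, which called 1.21% of all genes, called Jak1 (adjusted p = 0.0453) and Osm (adjusted p = 0.0170). Jak1 was also called by edgeR with no filter on low counts (adjusted p = 0.0283, 1.25% of all genes) and with a robust fit (adjusted p = 0.0363, 0.623% of all). At the unadjusted threshold 4 genes passed in edgeR and in DESeq2, against 6.89% and 12.3% of all genes, and 5 in limma-voom with quality weights, against 12.8%. In edgeR and DESeq2 they were the same 4, with Osm and Il6st higher (2.62% of all) and Il6 and Jak1 lower (4.26% of all). Osm had a log2 fold change of 2.95 ± 1.09 (SE, unadjusted p = 0.0173, adjusted p = 0.592) and Jak1 of -1.18 ± 0.31 (SE, unadjusted p = 0.0018, adjusted p = 0.190) in the edgeR test. The 3 brain libraries did not overlap with the 6 blood libraries for 4 genes, against 6.70% of all, with Osm and Il6st higher (3.57%) and Jak1 and Jak2 lower (3.13%). Without NMO_Bl_mono replicate 3, Osm passed at an adjusted p of 0.0245 (log2 fold change 2.67 ± 0.49, SE), when 0.801% of all genes passed, and 4 genes passed at an unadjusted p (9.07% of all). Without both libraries Osm had an adjusted p of 0.0122 (1.15% of all genes passed) and 5 genes passed at an unadjusted p (9.78% of all), with Stat3 added. Without Nor_Bl_mono replicate 1 or 2, NMO_Bl_mono replicate 1 or 2 or any brain library, 2 genes passed at an unadjusted p, Jak1 and Osm, when 4.74% to 6.91% of all genes did.

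Between the blood groups, NMO_Bl_mono against Nor_Bl_mono, 0 of the 9 genes passed the adjusted threshold, as did 0 of all genes tested in edgeR, and 0 passed the unadjusted one, against 0.712% of all genes. DESeq2 called 0 at either threshold (0.683% of all genes adjusted, 2.40% unadjusted). limma-voom with quality weights called 0, as for all genes, at the adjusted threshold and 2, Jak1 and Lif, at the unadjusted one (4.82% of all). Il6st was the only gene whose groups did not overlap (6.80% of all genes did not). The median log2 fold change of the 9 genes was -0.41, against -0.16 over all genes.

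The wider pathway was read from 5 lists that hold 52 further genes, of which 46 had a count and 42 were tested. In edgeR 0 of the 42 passed an adjusted p in any comparison. At the unadjusted threshold 3 passed for NMO_Br_mono against NMO_Bl_mono by edgeR (5.32% of all genes), 4 by DESeq2 (9.44%) and 12 by limma-voom with quality weights (12.6%). In edgeR 3 passed without NMO_Bl_mono replicate 3 (6.25% of all genes) and 1 without NMO_Bl_mono replicate 2 (3.41%). There were 5 without NMO_Br_mono replicate 3 (3.76%) and 6 without both libraries that lack many genes (6.75%). Genes such as Il11, Cntf and Lcn2, and Il6 and Lif above, entered the test through the groups where they had counts. Of the 9 other ligands, 4 were tested, and Il27, Ctf1, Ctf2 and Il31 were among those with no count in any library. The 4 that were tested were Clcf1 (cardiotrophin-like cytokine), Ebi3 (a subunit of interleukin-27 and interleukin-35), Il11 and Cntf, and none of them separated brain from blood. Clcf1 had means of 30.7, 54.5 and 56.3 CPM and Ebi3 of 48.0, 18.2 and 28.4 CPM in NMO_Br_mono, NMO_Bl_mono and Nor_Bl_mono. In the brain replicates 1 to 3, Clcf1 had 6.33, 85.8 and 0 CPM. Without both libraries that lack many genes, Clcf1 was called lower in the 3 brain comparisons at an unadjusted p (6.75%, 9.61% and 9.78% of all genes). Il11 averaged 3.97 and 6.28 CPM in the blood groups and was at or under 3 counts in every brain library. Cntf was at 0 in every brain library and lower than in Nor_Bl_mono at an unadjusted p of 0.0416 (adjusted p = 0.708). The bound was at least 11.5-fold, which covers counting error only, and the groups overlapped at 0.

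Of the other receptor chains, Osmr, the chain that pairs with gp130 to bind oncostatin M, had 202 counts in NMO_Br_mono replicate 3 (20.1 CPM) and 0 in the other 8 libraries. Il31ra, the partner of Osmr for interleukin-31, had 649 counts in NMO_Br_mono replicate 2, 14 in Nor_Bl_mono replicate 1 and 0 elsewhere. Each thus rested on a single brain library and did not pass the filter. The brain library that held Osmr also held the highest levels of endothelial markers, with 554 CPM of Flt1, 97.3 CPM of Kdr and 60.0 CPM of Cldn5, and 13.1 CPM of Gfap, an astrocyte gene. In NMO_Br_mono replicate 1 these 3 endothelial genes had 87.5, 27.8 and 33.0 CPM, and in replicate 2 they had no count. Gfap had no count in the other 8 libraries. The part of such cells in the Osmr counts was not tested. Lifr, the receptor chain of leukaemia inhibitory factor, had 5.32, 0.0951 and 0 CPM in NMO_Br_mono, against 22.5, 37.8 and 0 CPM in NMO_Bl_mono and 12.8, 44.4 and 35.2 CPM in Nor_Bl_mono. Its brain libraries lay below the normal blood ones, and the log2 fold change of -4.09 ± 2.88 (SE) did not pass (unadjusted p = 0.178, adjusted p = 1, edgeR). Il11ra1, the interleukin-11 receptor chain, averaged 10.4, 3.88 and 10.3 CPM in the brain, NMO blood and normal blood groups.

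Of the other kinases and STATs, 0 of 8 passed the unadjusted threshold in any comparison in edgeR with all 9 libraries, against 0.712% to 6.89% of all genes. Among the most abundant were Stat6 (90.3, 88.7 and 143 CPM on average in NMO_Br_mono, NMO_Bl_mono and Nor_Bl_mono), Tyk2 (76.8, 39.0 and 79.9 CPM) and Stat2 (105, 24.0 and 46.9 CPM). Stat2, a transcription factor of interferon signalling, was the only gene of this list whose brain libraries all lay above those of NMO_Bl_mono (6.30% of all genes did). It had no count in NMO_Bl_mono replicate 3. Its brain group overlapped with Nor_Bl_mono, at 58.6 CPM in NMO_Br_mono replicate 2 and 60.3 CPM in Nor_Bl_mono replicate 3. Without NMO_Bl_mono replicate 3, Stat2 was called higher at an unadjusted p against the mean of blood (9.07% of all genes). Without both libraries that lack many genes it was called in the 3 brain comparisons (6.75%, 9.61% and 9.78%). Of the 11 other negative regulators and sheddases, 0 passed the unadjusted threshold in edgeR with all 9 libraries, beside the same shares of all genes. Ptpn1, a tyrosine phosphatase that acts on Janus kinases, averaged 572, 717 and 774 CPM, and Ptpn6, the phosphatase SHP-1, averaged 244, 185 and 230 CPM. Adam10 and Adam17, membrane proteases that cleave the interleukin-6 receptor from the cell surface, averaged 135, 52.2 and 71.6 CPM and 131, 75.2 and 144 CPM. Adam10 was higher in every brain library (132, 88.5 and 185 CPM) than in any blood library (45.6 to 79.4 CPM, 3.57% of all genes). Its log2 fold change was 1.37 ± 0.76 (SE, unadjusted p = 0.0937, edgeR) against NMO_Bl_mono. Without NMO_Bl_mono replicate 3 it was called higher at an unadjusted p against the mean of blood. Without both libraries that lack many genes it was called in the 3 brain comparisons, beside the shares given for Stat2.

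Of the 17 tested genes of the STAT3 target list, 0 passed the adjusted threshold in any comparison in edgeR (0.247% of all genes in each of the first 2 brain comparisons). In NMO_Br_mono against NMO_Bl_mono, 13 had a positive log2 fold change, against 51.4% of all genes, and the median was 1.10, against 0.05. The brain libraries of 8 all lay above those of NMO_Bl_mono, against 6.30% of all genes. At the unadjusted threshold 3 were higher and 0 lower, against 1.48% and 3.84% of all genes. With NMO_Bl_mono replicate 3 left out, 18 were tested, 3 were higher and 12 were positive (44.4% of all genes), and the median was 0.98 (-0.16 over all genes). Without both libraries that lack many genes, 2 were higher and 1 lower, and the median was 0.61 (-0.12 over all genes). Against Nor_Bl_mono the median was 1.14 (-0.12 over all genes), 13 were positive (46.3% of all) and 5 were higher (1.75% of all). Between the blood groups the median was -0.07 (-0.16 over all genes), 8 were positive (42.4% of all) and 1 was called (0.712% of all). In edgeR with all 9 libraries, the 4 most abundant genes were not among those called. Without both libraries that lack many genes, Pim1 was the gene called lower against NMO_Bl_mono (6.75% of all genes). It was then also called lower against the mean of blood (9.78% of all genes). Junb was called lower against the mean of blood without NMO_Bl_mono replicate 3 (9.07% of all genes). Pim1, a kinase gene, averaged 989, 1172 and 1331 CPM in the brain, NMO blood and normal blood groups, Junb 848, 1192 and 1313 CPM, Mcl1, a survival factor gene, 709, 881 and 788 CPM and Fos 540, 325 and 579 CPM.

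The genes called were picked out after their values were seen. Il1rn, which encodes the interleukin-1 receptor antagonist, had 359, 225 and 139 CPM in NMO_Br_mono against 9.10, 20.9 and 0 CPM in NMO_Bl_mono and 0.288, 24.5 and 37.0 CPM in Nor_Bl_mono. Its log2 fold change against NMO_Bl_mono was 4.59 ± 1.73 (SE, unadjusted p = 0.0188, adjusted p = 0.802, edgeR). Ccnd1, the cyclin D1 gene, had 230, 166 and 309 CPM in the brain against 53.8, 17.6 and 52.3 CPM in NMO_Bl_mono (log2 fold change 2.51 ± 0.94, SE, unadjusted p = 0.0181). Il4ra, the receptor chain of interleukin-4, had 274, 408 and 254 CPM against 146, 135 and 92.1 CPM (1.33 ± 0.56, SE, unadjusted p = 0.0314). Without both libraries that lack many genes, Il1rn and Ccnd1 were still called against NMO_Bl_mono and Il4ra was not (0.93 ± 0.48, SE, unadjusted p = 0.0826, edgeR). With all 9 libraries, the brain libraries of each of these 3 genes lay above all 6 blood libraries. Against Nor_Bl_mono the same 3 genes passed the unadjusted threshold, as did Hif1a, a transcription factor of the oxygen response (191 against 72.1 CPM on average, unadjusted p = 0.0464). Lcn2, the lipocalin-2 gene, was at or under 3 counts in every Nor_Bl_mono library, at 24.0, 46.9 and 0 CPM in NMO_Bl_mono and at 54.3, 144 and 70.8 CPM in NMO_Br_mono. Allowing for counting error only, Lcn2 was at least 67.2-fold higher in NMO_Bl_mono and at least 255-fold higher in NMO_Br_mono than in Nor_Bl_mono (unadjusted p = 0.0037 and 0.0015, adjusted p = 1 and 0.224, edgeR). The first bound was 101-fold without NMO_Bl_mono replicate 3 (adjusted p = 0.202, edgeR). In that fit, and not in the edgeR fit of all 9 libraries, Lcn2 passed the adjusted threshold in the brain against Nor_Bl_mono (adjusted p = 0.0092, 0.552% of all genes). In the same fit it passed against the mean of blood (adjusted p = 0.0245, edgeR, 0.801% of all genes). Among the fits reported here it also passed against Nor_Bl_mono without both libraries that lack many genes (adjusted p = 0.0198, edgeR, 0.958% of all genes). It was the list gene called between the blood groups, and its NMO_Bl_mono libraries overlapped with the normal ones at 0.

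**Figure D3:**
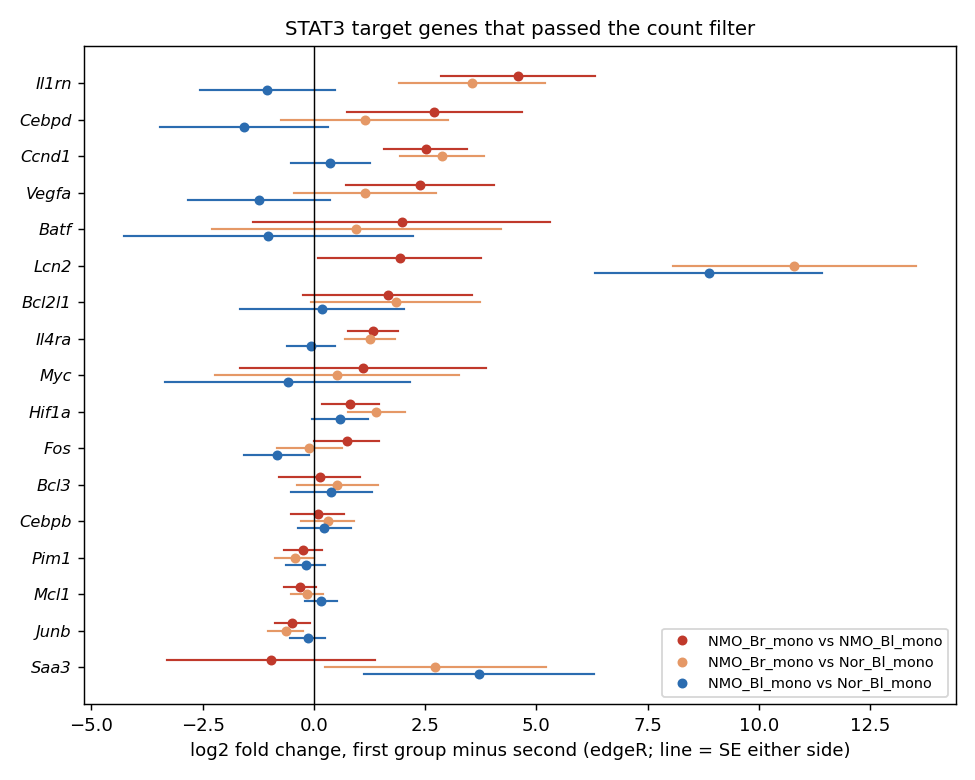
Fitted log2 fold change (horizontal axis, first group minus second) of the 17 tested STAT3 target genes in 3 comparisons, ordered by the change between NMO_Br_mono and NMO_Bl_mono, with lines for 1 SE either side. Il1rn, Ccnd1 and Il4ra lie to the right in both brain comparisons, Lcn2 lies far right wherever the normal blood group, near 0 counts, is the reference, and Pim1, Mcl1 and Junb lie close to 0.

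The genes whose levels followed Osm and Il6st most closely across the 9 libraries were listed as a description. Among 5600 genes with a mean of at least 20 CPM, the highest Pearson correlations of log2(CPM + 1) with Osm were those of Slc16a3 (r = 0.993), Il6st (0.981), Cd68 (0.981), Sf3b3 (0.979) and Ero1l (0.979). For Il6st they were those of Basp1 (0.982), Osm (0.981), Lgmn (0.981), Tgm2 (0.973) and Slc2a1 (0.973), so each of the pair was the second most similar gene to the other. All of these genes had brain libraries above all 6 blood libraries, and all but Cd68 had no count in NMO_Bl_mono replicate 3, so the points fall into separate clusters and share that library's missing genes. Slc16a3, a lactate transporter gene, had 205, 110 and 133 CPM in NMO_Br_mono against 18.0 to 35.9 CPM in Nor_Bl_mono. Slc2a1, the glucose transporter GLUT1, had 218, 228 and 364 CPM against 40.4 to 87.2 CPM. Cd68, a lysosomal protein gene of macrophages, had 390, 413 and 347 CPM against 82.0 to 165 CPM, and Tgm2, a transglutaminase gene, had 754, 1056 and 1167 CPM against 88.9 to 317 CPM.

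Markers of other cells also differed between the groups, not all of them in the same direction. All 10 monocyte markers were above 3 counts in at least 1 library of every group. Their summed level (in CPM) was 4627 to 7809 for NMO_Br_mono, 3642 to 6756 for NMO_Bl_mono and 4949 to 6558 for Nor_Bl_mono. The gated cells thus carried monocyte transcripts in each group, but single markers differed. Against NMO_Bl_mono, 4 of the 10 lay higher and 1 lower in all brain libraries (6.30% and 6.05% of all genes tested). Ly6c2 had 437, 59.4 and 199 CPM in the brain, against 462 to 933 CPM in blood. Ccr2 had 1297, 786 and 1133 CPM in the brain, against at most 691 CPM in blood. Beside Osm, which neutrophils also make, the 11 neutrophil markers summed to 444 to 1790 CPM in the brain group, against 127 to 315 in NMO_Bl_mono and 85.0 to 299 in Nor_Bl_mono. S100a8 and S100a9 held most of it in the brain. Between the NMO groups 2 of the 11 did not overlap, S100a8 and Ngp, both higher in the brain (6.30% of all genes tested were). S100a9 overlapped, at 78.8 CPM in NMO_Br_mono replicate 1 and 126 CPM in NMO_Bl_mono replicate 3, as did Mmp8. Retnlg went the other way, at 37.8 to 125 CPM in Nor_Bl_mono and 0 in every brain library. Mmp9 and Stfa2l1 were at or under 3 counts in the brain. The 10 microglia markers summed to 439 to 721 CPM in NMO_Br_mono against 0 to 53.0 CPM in NMO_Bl_mono and 31.2 to 74.1 CPM in Nor_Bl_mono, although P2ry12+ cells had been gated out. None of the 10 was at or under 3 counts in all brain libraries. Against NMO_Bl_mono, 4 of them lay higher and 0 lower in all brain libraries (6.30% and 6.05% of all genes tested). P2ry12 overlapped, at 23.7, 69.7 and 9.95 CPM in the brain and 43.4, 35.0 and 0.920 CPM in Nor_Bl_mono. Tmem119, Sall1, Siglech and Gpr34 had no count in at least 1 brain library. Sparc had 109, 75.9 and 314 CPM in the brain. Beside Jak1, Jak2 and Lifr, the 11 markers of T, B and NK cells summed to 40.6 to 289 CPM in NMO_Br_mono against 1977 to 2458 CPM in NMO_Bl_mono and 1658 to 2058 CPM in Nor_Bl_mono, mostly Gzma and Nkg7, with Cd3e and Cd79a among those at or under 3 counts in the brain. The 6 platelet markers summed to 0 to 39.8 CPM in the brain against 630 to 2315 CPM and 449 to 2882 CPM in the NMO and normal blood groups. The 11 genes of the response to dissociation summed to 5952 to 13042 CPM in NMO_Br_mono against 1195 to 5712 CPM and 1857 to 8306 CPM in the blood groups, and 2 of them, Fos and Junb, are also in the STAT3 target list. Of these 11, the heat-shock genes Hspa1a and Hspa1b had 566 to 4112 and 380 to 4239 CPM in the brain, against at most 51.6 and 34.7 CPM in any blood library. The 5 endothelial markers summed to 115 to 747 CPM in the brain, 27.3 to 97.2 CPM in NMO_Bl_mono and 5.62 to 116 CPM in Nor_Bl_mono, with Cldn5 at 0 in every blood library. The 5 astrocyte markers reached 39.6, 1.68 and 11.2 CPM at most in those groups, with Aqp4 and Slc1a3 at or under 3 counts in the brain. The 6 markers of border-associated macrophages summed to 122 to 380 CPM in the brain, 81.7 to 126 CPM in NMO_Bl_mono and 2.25 to 55.2 CPM in Nor_Bl_mono, with Folr2 at or under 3 counts in every group. The part of these cells and of preparation in the differences above was not tested.

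**Figure D4:**
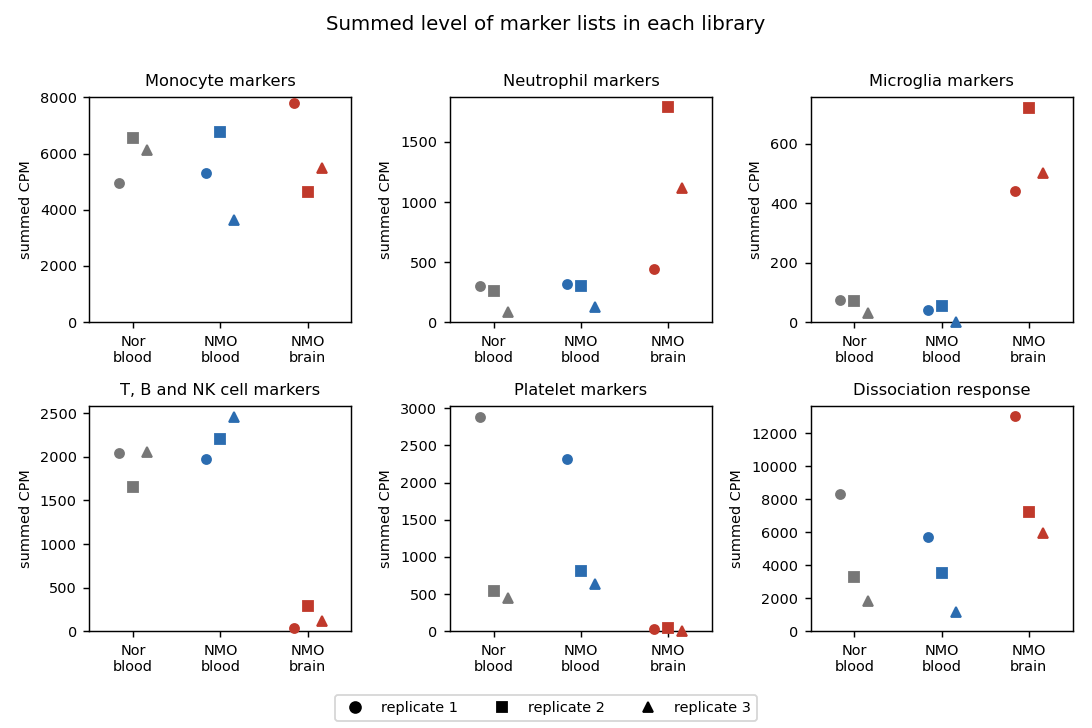
Summed CPM (vertical axis, starting at 0, own scale per list) of 6 marker lists in the 3 libraries of each group, with the marker shape giving the replicate number. Neutrophil and microglia lists lie higher, and the T, B and NK cell and platelet lists lower, in all 3 brain libraries than in any blood library, and the monocyte list overlaps between the groups. The dissociation list lies higher in all 3 brain libraries than in NMO_Bl_mono and overlaps with Nor_Bl_mono.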

How the data were processed

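The deposited files hold raw read counts per gene symbol, made by the authors from QuantSeq 3′ reads of 9 sorted monocyte libraries. The submitters' processing notes name Bowtie2, bedtools and mm10, and the methods state that unique and multiple alignments were counted, so near-identical genes can share reads. The gene annotation and the use of strand are not given in the sources used here. Of 23282 entries, the one with the highest total was kept for each repeated symbol, which left 23238 symbols, and all 9 libraries were fitted together, with 1 coefficient per group, by the edgeR quasi-likelihood test (edgeR 4.0.16, R 4.3.3) with TMM factors, filterByExpr and Benjamini-Hochberg adjustment over 10107 genes. Groups were compared at an adjusted p of 0.05 and at the study's threshold, an unadjusted p of 0.05 with a fold of 1.2. The steps were tested on simulated data. All 9 genes are named, as are the 4 most abundant tested genes of each list, any list gene past the adjusted threshold, and the 5 genes most like Osm and Il6st. Some genes of these lists are not reported here. Members and lists were chosen with earlier results of these data known. The gene set was proposed with such results in view, so agreement among its members is not independent evidence. Alternatives were other factors, filters and samples, a replicate block, DESeq2 1.42.0, a robust fit, limma-voom with library quality weights (limma 3.58.1), omission of Rn45s, each library left out and, added after seeing the data, both libraries that lack many genes left out. The library totals, with the group sizes, set the precision, and 3 counts were taken as the floor.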

Additional observations from a re-analysis of the deposited data

How the results depend on the processing

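Each log2 fold change of the 9 genes was recomputed under up to 20 alternatives. Of 687 values, 39 turned sign and 8 newly passed the adjusted threshold, which no gene of the 9 passed as reported, and no direction of Osm, Il6st, Jak1 or Stat3 in a brain comparison turned. Counts at an unadjusted p depended on the tool and filter, and the cause was not tested. For NMO_Br_mono against NMO_Bl_mono, the 2 genes became 1 with at least 10 counts in every library (4 of the 9 genes were left to test) or with only the groups compared, and 4 with DESeq2, limma-voom with library quality weights (below as limma-voom) or both libraries that lack many genes left out, and limma-voom called 1 at an adjusted p. In that fit the median log2 fold change of all genes was -0.65, against 0.05, and the tool and the weights were not tried apart. For NMO_Br_mono against Nor_Bl_mono the 2 became 1 with at least 10 counts and 5 with limma-voom or without both libraries, which called 1 at an adjusted p. Against the mean of blood, which has no fit with only the groups compared, the 4 became 1 with at least 10 counts, and 1 gene passed an adjusted p with no filter, a robust fit or without both libraries and 2 with limma-voom. For NMO_Bl_mono against Nor_Bl_mono limma-voom called 2, against 0. Genes of the wider lists called at an unadjusted p were 3 for brain against NMO blood, 1 between the blood groups, 6 for brain against normal blood and 4 for brain against the mean of blood. In that order they became 12, 2, 10 and 13 with limma-voom. With no filter, 5 were called for brain against NMO blood and 9 against the mean of blood, and without both libraries 6 and 10, with 2 between the blood groups. With at least 10 counts, 0 were called between the blood groups and 3 for brain against normal blood, and with only the groups compared 0 between the blood groups. Leaving out each library in turn gave 1 to 4, 1 to 5 and 2 to 4 (5 without both) of the 9 genes at an unadjusted p in the 3 brain comparisons, 0 to 1 at an adjusted p against the mean of blood, and 1 to 5 (6 without both), 1 to 2, 2 to 5 (8 without both) and 4 to 8 (10 without both) list genes. The sources used here do not say whether libraries with the same replicate number belong together. The correlation of deviations from the group means was -0.0102 to 0.116 over 9 pairs with the same number and -0.0957 to 0.0301 over 18 others. The highest values were those of same-numbered pairs. Replicate 1 had the highest share of Rn45s counts in each group (43.6%, 42.2% and 39.3% in Nor_Bl_mono, NMO_Bl_mono and NMO_Br_mono). Whether the numbers mark a shared source was not tested. With the numbers as a replicate block, called genes became 1 against Nor_Bl_mono and 2 against the mean of blood, list genes against Nor_Bl_mono became 2, and values that turned sign were 0.38 (Socs3, against NMO_Bl_mono), 0.0096 (Il6, between the blood groups), 0.075 (Il6ra) and 0.46 (Socs3), both against the mean of blood.

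Other log2 fold changes that turned sign were small or rested on few counts. Between the blood groups Il6 was 0.91 and Jak2 -0.13 with limma-voom, 0.11 and -0.39 without both libraries, and, with each library left out, Il6 ran from -1.32 to 2.09, Jak2 from -0.39 to 0.45 and Socs3 from -0.22 to 0.81. Against NMO_Bl_mono, Il6ra ran from -0.19 to 1.03 and Socs3 from -0.74 to 0.29 (-0.90 without both libraries). Against Nor_Bl_mono, Socs3 was -0.20 with limma-voom and -0.09 without both libraries, and ran from -0.37 to 0.44, and Lif ran from -2.14 to 7.61. Against the mean of blood, Il6ra was 0.020 with RLE factors and with DESeq2 and 0.049 without both libraries, and ran from -0.41 to 0.34. Socs3 was 0.043 with RLE factors and with DESeq2, 0.027 with library sizes alone and 0.0039 with at least 10 counts, and ran from -0.33 to 0.18 (-0.49 without both libraries). Lif was -0.88 with limma-voom and ran from -5.62 to 3.04. At 3 pools a group, differences in genes that some libraries miss altogether were not detectable unless very large, and the intervals of Osm and Il6st span several log2 units.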
